A study of Drosophila melanogaster with 40 samples.

Results

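The Cpr genes of Drosophila melanogaster were examined in early embryos for binding of 5 chromatin proteins at their promoters. Members were all protein-coding genes whose symbol starts with Cpr followed by a number, which gave 70 of 18315 annotated genes (13981 of them protein-coding). They had 77 distinct transcription start sites (TSS) of 24149 in all, since 63 genes had 1 TSS and 7 genes had 2. A promoter was taken as 1 kb to either side of a TSS. By chromosome arm, 35 of the genes lay on 3L, 21 on 2R, 5 on 2L, 5 on 3R and 4 on X. The rule reads the symbol alone, but the family and the gene lists compared with it were picked with earlier results of these data known.

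The data were lists of called peaks from chromatin immunoprecipitation sequencing (ChIP-seq) of embryos 0.5 to 1.5 h old, with 7 groups of 2 replicates and therefore 14 lists. In M-Z+ dPCIF1 mutant embryos, whose mothers lacked dPCIF1 but which carried a zygotic copy, the pioneer factors GAF and Zelda (ZLD) were precipitated. In wild-type embryos (the w1118 strain, per the study's methods) the same factors were precipitated, and in addition dPCIF1 (the fly homologue of the mammalian cap methyltransferase PCIF1), the histone H3.3 chaperone HIRA, and RNA polymerase II whose C-terminal repeats carry phosphate on serine 5 (RNA Pol II-Ser5P). The mutant alleles were made with CRISPR/Cas9, and each replicate was a pool of hand-selected whole embryos, so a peak cannot be assigned to a cell or nucleus type. The lists hold positions only, without heights or read counts, so the depth behind them is unknown. They held 3547 to 6499 peaks for GAF, ZLD, dPCIF1 and HIRA, and 11661 and 11219 peaks for RNA Pol II-Ser5P.

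Cpr proteins are structural proteins of the insect cuticle. Most carry the Rebers and Riddiford domain, which binds the chitin fibres that the epidermis lays down, and their genes are known to be switched on late, in pulses around cuticle formation in the late embryo and at each moult. In the early embryo most of the genome has not yet been transcribed: development runs on maternal mRNA until zygotic genome activation, which GAF and Zelda help to start by opening chromatin. Phosphorylation of serine 5 marks polymerase that has begun transcription or is paused near a promoter.

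Few Cpr promoters held a peak of any of the 5 proteins. A peak was found in at least 1 of the 14 lists at 13 of 77 Cpr promoters (16.9%), belonging to 11 genes, against 64.4% of all annotated promoters. The other 64 Cpr promoters and 59 Cpr genes held no peak in any list. Among all promoters, 11.0% held a peak in 10 lists or more, and 0 Cpr promoters did. RNA transcripts were not measured in these files, so the lists show where a protein was called and not whether a gene was silent.

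RNA Pol II-Ser5P was the protein found at the most Cpr promoters. Its replicates had a peak at 10 and 10 of the 77 Cpr promoters (12.99% in each), against 53.0% and 52.8% of all promoters. The 10 promoters were those of 8 genes in replicate 1 and of 9 genes in replicate 2. A peak in both replicates was present at 8 Cpr promoters of 7 genes, namely Cpr30F, Cpr47Eg, Cpr60D, Cpr65Au, Cpr67B, Cpr78Ca and Cpr78Cb, against 50.0% of all promoters.

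The pioneer factors were at very few of them. GAF was called at 2 and 3 Cpr promoters in the M-Z+ dPCIF1 mutant replicates, where 25.3% and 22.9% of all promoters had a GAF peak. In the wild-type replicates it was called at 3 and 2 Cpr promoters, where 25.8% and 26.4% of all promoters had one. In both genotypes the promoters with a GAF peak in both replicates were the same 2, those of Cpr67B and Cpr67Fb, against 21.8% of all promoters in the mutant and 24.0% in wild type. ZLD was called at 2 and 0 Cpr promoters in the mutant replicates (12.4% and 11.8% of all promoters) and at 1 and 0 in the wild-type replicates (12.8% and 11.8% of all promoters). No Cpr promoter had a ZLD peak in both replicates of either genotype, against 10.1% of all promoters in the mutant and 8.97% in wild type.

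The chromatin regulators were nearly absent as well. dPCIF1 was called at 2 Cpr promoters in replicate 1 and at 0 in replicate 2, against 23.0% and 20.1% of all promoters. HIRA was called at 0 and 0 Cpr promoters, against 20.8% and 17.4% of all promoters. Neither protein had a Cpr promoter with a peak in both replicates, whereas 17.2% of all promoters had one for dPCIF1 and 14.2% for HIRA. In every one of the 14 lists the Cpr share was below the share of all promoters.

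**Figure D1:**
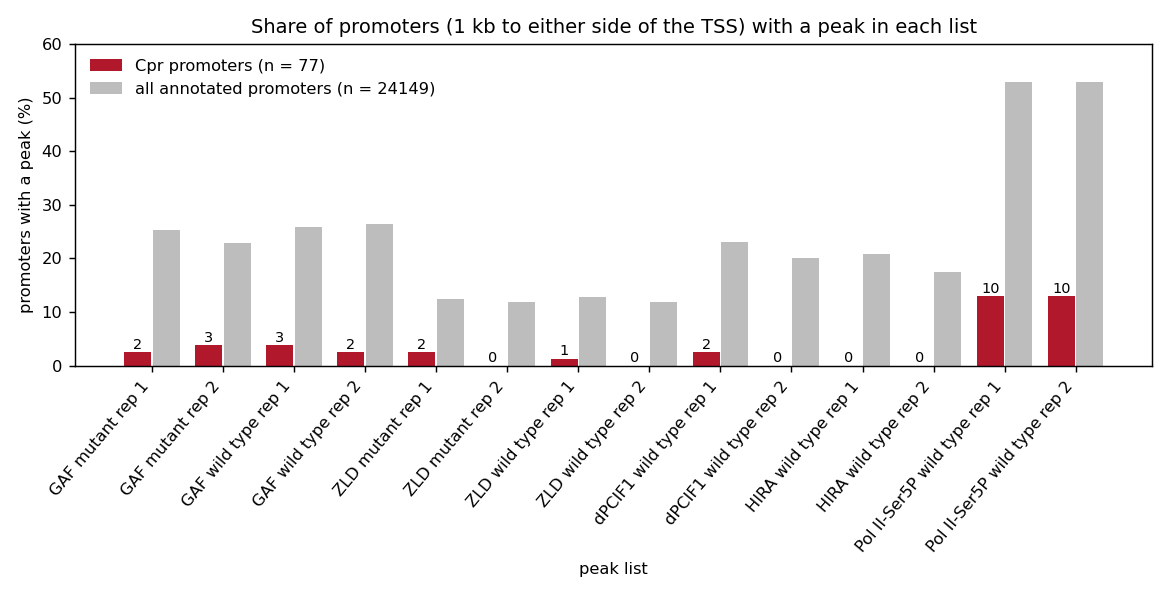
Percent of promoters with at least 1 peak within 1 kb of the TSS, in each of the 14 peak lists: red bars, the 77 Cpr promoters, with the number that hold a peak above each bar, and grey bars, all 24149 annotated promoters. The Cpr bars reach 12.99% for RNA Pol II-Ser5P and at most 3.90% elsewhere, below the grey bar in each list.

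Averaged over replicates, 3.25% ± 0.918 of Cpr promoters held a GAF peak in the mutant, against 24.1% ± 1.67 of all promoters (SD, n = 2 lists each). In wild type the GAF averages were 3.25% ± 0.918 of Cpr promoters and 26.1% ± 0.448 of all promoters (SD, n = 2). For RNA Pol II-Ser5P the Cpr average was 12.99%, the same in both lists, and that of all promoters was 52.9% ± 0.102 (SD, n = 2). The gap to all promoters was larger than the spread between replicates in each of the 7 groups. Neighbouring Cpr genes can share a peak and are no replicates of one another, so the gap is described by its size and no test was run over the members.

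The 11 exceptions were seldom bound at the TSS itself. They were named after their values were seen, because the rule set for naming single genes (both replicates of dPCIF1 or HIRA, 10 lists or more, or 1 genotype alone) took 0 members under each of its conditions. Their promoters were reached by 32 distinct peaks, 18 of RNA Pol II-Ser5P, 10 of GAF, 2 of ZLD and 2 of dPCIF1, with a median width of 667.5 bp (255 to 5797 bp). Of these peaks, 9 covered a Cpr TSS, and they lay at 3 genes, Cpr67B (5 lists), Cpr65Au (2 lists) and Cpr78Cb (2 lists). The midpoint of 17 peaks was nearest to a Cpr TSS and that of 15 peaks was nearest to the TSS of another gene. RNA Pol II-Ser5P covered 3 Cpr TSS in replicate 1 and 3 in replicate 2, against 40.8% and 41.6% of all TSS.

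**Figure D2:**
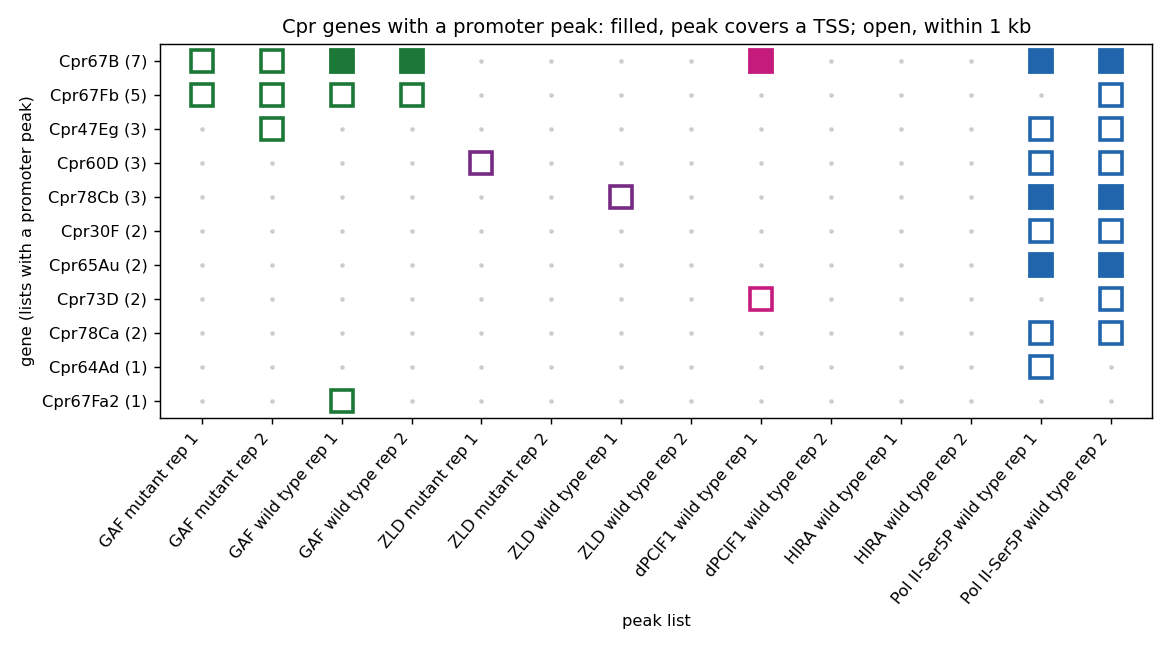
The 11 Cpr genes with a promoter peak (rows, with the number of lists) in each of the 14 lists (columns): a filled square is a peak over a TSS of the gene, an open square a peak that only reaches the 1 kb window, and a dot no peak. Cpr67B leads with 7 lists, the HIRA columns are empty, and only Cpr67B, Cpr65Au and Cpr78Cb have filled squares.

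Cpr67B (FBgn0035985, chr3L:9404797-9406174 in dm6, plus strand) had a promoter peak in 7 lists, the most of any Cpr gene. They were the 4 GAF lists, dPCIF1 replicate 1 and both RNA Pol II-Ser5P replicates. Its nearest neighbour is eIF4E1, the main mRNA cap-binding translation initiation factor, whose TSS lies 2337 bp away and is read in the opposite direction. In the mutant, the GAF peaks were 5797 and 3287 bp wide, covered the eIF4E1 TSS, and stopped 522 and 450 bp before the Cpr67B TSS. In wild type, replicate 1 had a GAF peak of 4219 bp over both start sites. Replicate 2 had 2 peaks, one that ended 721 bp before the Cpr67B TSS and another of 538 bp that covered it.

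GAF thus covered the Cpr67B TSS in 0 of 2 mutant lists and in 2 of 2 wild-type lists. Over all TSS, GAF covered 16.7% and 15.4% in the mutant lists and 18.0% and 18.3% in the wild-type lists. With 2 lists a genotype, the difference at Cpr67B was not tested, and it was noticed among the exceptions after their values were seen. The dPCIF1 peak in replicate 1, 361 bp wide, also covered the TSS, while the nearest dPCIF1 peak of replicate 2 was 2329 bp away. RNA Pol II-Ser5P peaks of 3961 and 3937 bp extended over both the eIF4E1 and the Cpr67B TSS. Polymerase at Cpr67B and the edge of a broad domain at eIF4E1 cannot be told apart in these lists.

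**Figure D3:**
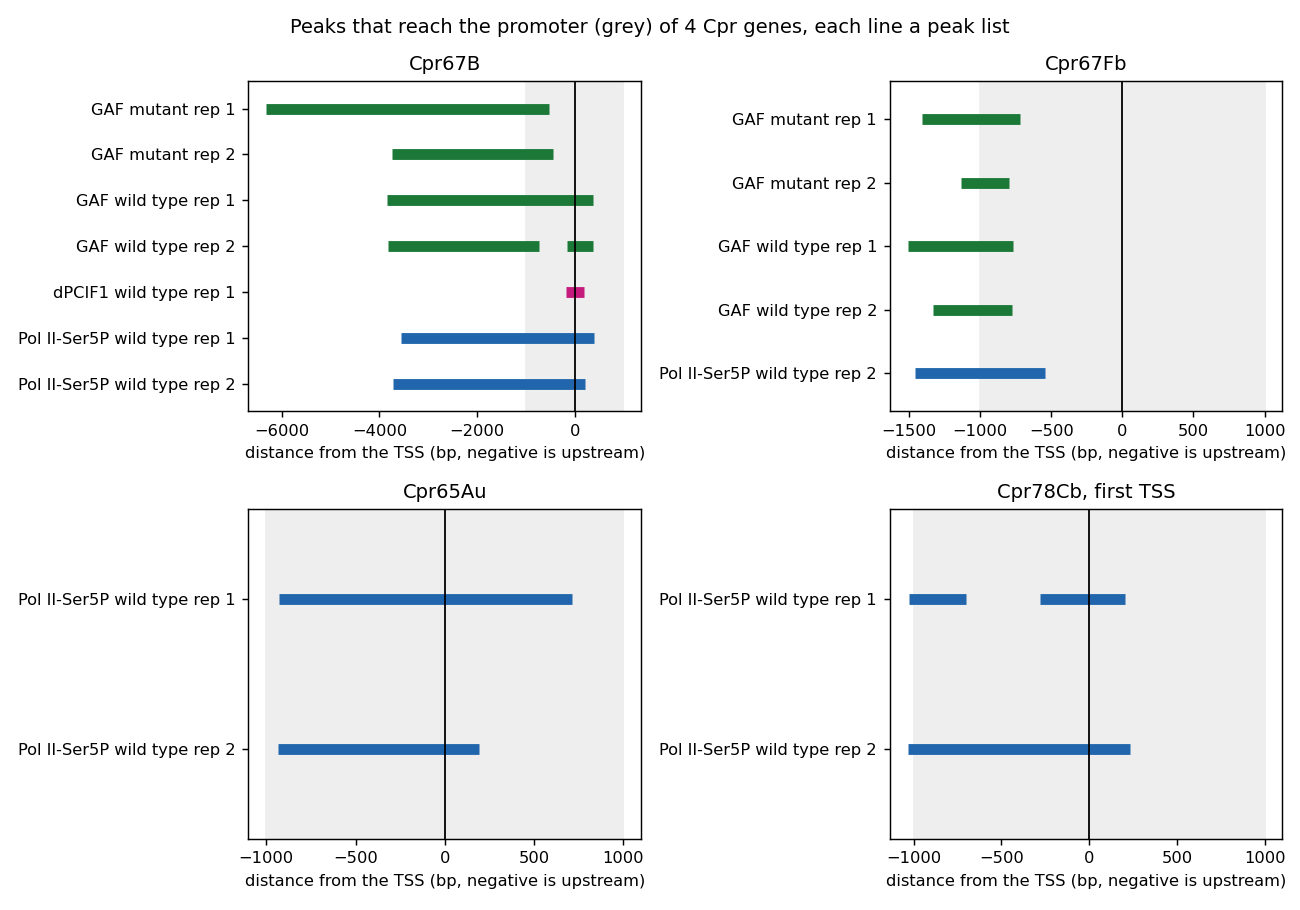
Extent of each peak that reaches the promoter of Cpr67B, Cpr67Fb, Cpr65Au and the first TSS of Cpr78Cb, in bp from the TSS (black line, negative is upstream, grey is the 1 kb window), with 1 row per list and colours by protein. At Cpr67B each GAF and RNA Pol II-Ser5P list has a peak that runs far upstream towards eIF4E1, at Cpr67Fb all peaks stop at least 546 bp before the TSS, and at Cpr65Au and Cpr78Cb each RNA Pol II-Ser5P list has a peak over the TSS.

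The promoter sequences of the 3 genes with a covered TSS are shown because they are the Cpr promoters at which a protein was called over the start itself. Each runs 5′ to 3′ from 250 bases before the TSS to 10 bases into the transcript, read from the RefSeq copy of the dm6 assembly. Capitals mark GAGAG or CTCTC (the GAF element and its reverse), CAGGTA or TACCTG (the Zelda element and its reverse) and TATAAA or TTTATA (the TATA box and its reverse).
Cpr67B (chr3L:9404547-9404806, plus strand): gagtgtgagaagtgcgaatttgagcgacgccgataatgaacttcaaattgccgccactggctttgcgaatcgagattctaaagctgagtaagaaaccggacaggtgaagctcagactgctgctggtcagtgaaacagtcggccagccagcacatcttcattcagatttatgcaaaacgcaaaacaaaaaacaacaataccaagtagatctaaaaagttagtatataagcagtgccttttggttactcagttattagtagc
Cpr65Au (chr3L:6132100-6132359, minus strand): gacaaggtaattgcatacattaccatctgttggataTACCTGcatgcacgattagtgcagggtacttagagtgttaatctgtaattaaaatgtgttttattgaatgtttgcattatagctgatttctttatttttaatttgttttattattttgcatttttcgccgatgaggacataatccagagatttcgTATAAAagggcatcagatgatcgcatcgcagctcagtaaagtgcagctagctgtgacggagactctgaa
Cpr78Cb (chr3L:21294242-21294501, plus strand): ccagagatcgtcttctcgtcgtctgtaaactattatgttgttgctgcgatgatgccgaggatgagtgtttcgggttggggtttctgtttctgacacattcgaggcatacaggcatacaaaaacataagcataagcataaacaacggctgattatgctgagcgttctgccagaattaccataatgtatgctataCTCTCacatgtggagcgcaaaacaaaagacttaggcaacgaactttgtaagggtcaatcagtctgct
The Cpr67B run, covered by GAF in full in wild-type replicate 1 and in part in replicate 2, holds none of the 3 elements, and a single reversed Zelda element lies further into the transcript, within 50 bases of the TSS and past the end of the run shown. The Cpr65Au run holds 1 reversed Zelda element and 1 TATAAA match. That match lies further upstream than the usual place of a TATA box. Cpr65Au is therefore counted below among the promoters without a positioned TATA box. The Cpr78Cb run holds 1 reversed GAF element. A match is only a run of letters, and its absence says nothing of whether the factor was there.

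Cpr67Fb (FBgn0036110, chr3L:10894173-10894693, plus strand) was the other gene with GAF in all 4 lists. The GAF peaks ended 721 and 794 bp before its TSS in the mutant and 768 and 776 bp before it in wild type. They lay in the intergenic stretch between Cpr67Fa2 and Cpr67Fb, and none covered an annotated TSS. An RNA Pol II-Ser5P peak of replicate 2 spanned the same stretch and ended 546 bp before the TSS, and replicate 1 had no peak there. The same GAF peak of wild-type replicate 1 reached to 949 bp downstream of the TSS of Cpr67Fa2 (FBgn0036109, chr3L:10891714-10892516), which is the only peak at that promoter.

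The 4 GAF peaks shared a stretch of 341 bp, chr3L:10893039-10893379, which lay 794 to 1134 bp before the Cpr67Fb TSS. It holds 0 GAGAG elements on either strand, and so does the whole peak in each of the 4 lists, whereas 77.5% to 83.7% of the peaks in those lists hold at least 1. At Cpr67B the broad GAF peaks held 23 and 13 elements in the mutant lists and 15 and 14 in the wild-type lists, or 3.56 to 4.51 per kb, against 4.90 to 5.29 per kb over all peaks of the GAF lists. The narrow wild-type peak over the Cpr67B TSS held 1. The middle of the shared stretch is shown, with capitals as above, because it is, besides the interval from eIF4E1 to Cpr67B, the only site where every GAF list had a peak in a Cpr promoter window.
Cpr67Fb upstream (chr3L:10893060-10893359, plus strand): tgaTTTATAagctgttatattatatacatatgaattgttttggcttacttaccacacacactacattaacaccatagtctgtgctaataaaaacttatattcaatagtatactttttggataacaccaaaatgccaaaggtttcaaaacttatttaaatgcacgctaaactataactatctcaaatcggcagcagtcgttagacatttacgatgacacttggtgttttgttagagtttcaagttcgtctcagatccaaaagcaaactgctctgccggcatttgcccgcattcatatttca
Its only capital letters are a reversed TATA box near the start of the run.

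RNA Pol II-Ser5P was called over the TSS of Cpr65Au and Cpr78Cb in both replicates. At Cpr65Au (FBgn0042119, chr3L:6131242-6132109, minus strand), the peaks were 1640 and 1123 bp wide. Counted from the TSS, with upstream negative, they ran from −927 to 712 bp in replicate 1 and from −932 to 190 bp in replicate 2, and no other annotated TSS lay inside them. The nearest start sites are those of Lcp65Ag3 and Lcp65Ag2, larval cuticle protein genes 1120 and 1484 bp away. Both of these genes also had an RNA Pol II-Ser5P promoter peak in each replicate. At Cpr78Cb (FBgn0037068, chr3L:21294492-21296698, plus strand), the first TSS was covered by peaks of 486 and 1271 bp. Its second TSS, at 21295396, was covered in 0 lists, and a ZLD peak of wild-type replicate 1 lay 947 bp downstream of it. ZLD was not called there in the mutant lists or in wild-type replicate 2.

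Cpr78Ca (FBgn0037067, chr3L:21291860-21292800, minus strand) faces Cpr78Cb across 1692 bp, and both genes had peaks from the same region. RNA Pol II-Ser5P replicate 2 had a single peak that began 657 bp upstream of the Cpr78Ca TSS and ran over the Cpr78Cb TSS. Replicate 1 had a separate peak of 326 bp there and another that started 796 bp downstream of the Cpr78Ca TSS. Cpr30F (FBgn0051876, chr2L:9932272-9933163, minus strand) had RNA Pol II-Ser5P peaks that ended 148 and 529 bp upstream of its TSS, and the nearest other TSS was 2583 bp away. Both genes had a peak of no other protein. Cpr64Ad (FBgn0035513, chr3L:4215379-4216414) had a peak of RNA Pol II-Ser5P in replicate 1, 331 bp wide and 696 bp upstream, and none in replicate 2. The Cpr64Ad TSS and the midpoint of that peak both lie inside CG43367, a gene read in the same direction. To which of the 2 genes the peak belongs cannot be told from the lists.

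At 3 further exceptions most of the peaks lay over the TSS of a gene outside the family, as the broad ones at Cpr67B did. Near Cpr47Eg (FBgn0086519, chr2R:11277957-11278445, minus strand), RNA Pol II-Ser5P peaks in both replicates covered the paired start sites of CG9067 and Vhl, which encodes the substrate receptor of a ubiquitin ligase, 1238 and 1280 bp upstream of Cpr47Eg. A GAF peak of mutant replicate 2 covered the same pair and reached the window at exactly 1000 bp, and the other GAF lists had their nearest peak at 1013, 1041 and 1143 bp. Replicate 2 of RNA Pol II-Ser5P alone had a further peak 271 to 774 bp downstream of the Cpr47Eg TSS. Near Cpr60D (FBgn0050163, chr2R:24662682-24663406, minus strand), the RNA Pol II-Ser5P peaks covered ND-19, which encodes a subunit of mitochondrial complex I, and CG30161. Their start sites lie 992 and 971 bp from one Cpr60D TSS. A ZLD peak of mutant replicate 1 lay 471 bp from it. Cpr73D (FBgn0036680, chr3L:16939100-16957689, minus strand) starts inside Ogdh, which encodes an enzyme of the citric acid cycle, with the Ogdh TSS 250 bp away and read in the opposite direction. The dPCIF1 peak of replicate 1 and the RNA Pol II-Ser5P peak of replicate 2 both covered that Ogdh TSS, 125 and 20 bp from the Cpr73D TSS.

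Widening the search to the gene and 1 kb upstream added few members. HIRA was then found at 1 Cpr gene in each replicate, Cpr73D both times, against 22.7% and 18.7% of protein-coding genes. Its peaks lay 4682 and 3726 bp into the gene in replicate 1 and 2134 bp into it, over another Ogdh TSS, in replicate 2. RNA Pol II-Ser5P was found at 10 and 10 Cpr genes, against 59.4% and 59.1% of protein-coding genes, with Cpr51A (chr2R:14512559-14515211) added in both replicates. Cpr47Ea was added by 1 GAF peak of mutant replicate 1. Cpr genes are short, with a median length of 1093 bp against 2163 bp for protein-coding genes. Genes of matched length were not compared, so the part of length in these counts was not tested.

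Several members without a promoter peak had one just outside the 1 kb window. Cpr100A had its nearest ZLD peak at 1412 and 1396 bp in the mutant lists and at 1366 and 1396 bp in the wild-type lists, and its nearest GAF peak at 1405 and 1320 bp in the mutant lists and at 1275 and 1293 bp in the wild-type lists. It was thus close to both pioneer factors in each of their lists and counted in none. Cpr78Cc had a ZLD peak at 1615 bp in mutant replicate 2 and at 1532 and 1537 bp in the wild-type lists. RNA Pol II-Ser5P lay 1118 and 1159 bp from Cpr78Cc in the 2 replicates. It lay 1282 and 1728 bp from Cpr51A, 1769 and 1768 bp from Cpr57A, and 1939 and 1926 bp from Cpr66Cb. In replicate 1 it was also 1111 bp from Cpr47Ec, 1438 bp from Cpr64Ac and 1999 bp from Cpr31A. Cpr35B had a HIRA peak at 1438 bp in replicate 1, and Cpr47Ea a GAF peak at 1213 bp in mutant replicate 1. HIRA came closest at 1004 bp, at Cpr47Eg in replicate 2, and dPCIF1 replicate 1 had a peak 1010 bp from the same gene.

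Cpr promoters lay further from the peaks of each list than promoters at large. Taking the nearest peak of any list, 35 of 77 Cpr TSS (45.5%) were within 5 kb, against 80.7% of all TSS. The median distance from a Cpr TSS to the nearest RNA Pol II-Ser5P peak was 8456 and 10370 bp in the 2 replicates, against 600 and 582 bp for all TSS. For GAF it was 23619 and 27674 bp in the mutant lists, against 7636 and 8999 bp for all TSS, and 19351 and 19612 bp in the wild-type lists, against 7454 and 7022 bp. For ZLD, the Cpr medians ran from 23486 to 31723 bp and those of all TSS from 15288 to 18646 bp. For dPCIF1 they were 21162 and 21989 bp, against 8724 and 11014 bp for all TSS, and for HIRA 21927 and 22580 bp, against 10351 and 13346 bp. Within 5 kb of an RNA Pol II-Ser5P peak were 25 and 24 Cpr TSS (32.5% and 31.2%), against 67.4% and 67.0% of all TSS.

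**Figure D4:**
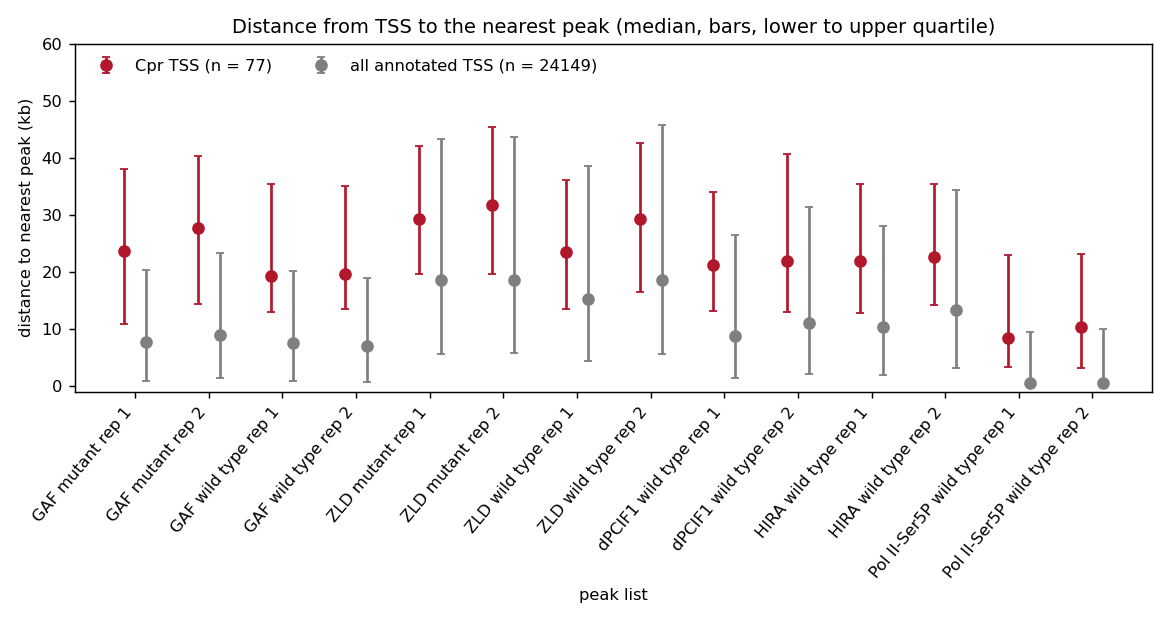
Distance in kb from a TSS to the edge of the nearest peak of each list, as the median (point) with the lower and upper quartiles (bars), for the 77 Cpr TSS in red and all 24149 TSS in grey. The Cpr median is the larger in all 14 lists, and for RNA Pol II-Ser5P it is 8456 and 10370 bp.

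Start sites of other genes were less often near a Cpr promoter than near promoters at large, and 46 of the 70 Cpr genes lay in clusters. Another gene's TSS lay within 1 kb of 12 of 77 Cpr promoters (15.6%), against 45.6% of all promoters. Among promoters with no other TSS within 1 kb, RNA Pol II-Ser5P was at 12.3% of the 65 Cpr promoters on average, against 39.8% of 13130 promoters. The Cpr share was lower also among promoters without such a neighbour. With members joined when their starts lay at most 10 kb apart, there were 2 clusters of 5 or more. In each of them 1 of 7 genes had a promoter peak, and it was the gene at the end, Cpr47Eg of Cpr47Ea to Cpr47Eg and Cpr65Au of Cpr65Au to Cpr65Az. Another 10 clusters of 2 to 4 held 32 genes, 5 of them with a peak (Cpr64Ad, Cpr67Fa2, Cpr67Fb, Cpr78Ca and Cpr78Cb), and of 24 single genes 4 had a peak (Cpr30F, Cpr60D, Cpr67B and Cpr73D).

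Whole clusters were free of peaks in all 14 lists. They were Cpr49Aa to Cpr49Ad, Cpr49Ae to Cpr49Ah, Cpr62Ba to Cpr62Bc, Cpr65Ea to Cpr65Ec, Cpr72Ea to Cpr72Ec, Cpr76Ba to Cpr76Bc, and the pair Cpr97Ea and Cpr97Eb. The single genes without a peak were Cpr5C, Cpr11A, Cpr11B, Cpr12A, Cpr23B, Cpr30B, Cpr31A, Cpr35B, Cpr50Ca, Cpr50Cb, Cpr51A, Cpr56F, Cpr57A, Cpr66Cb, Cpr66D, Cpr76Bd, Cpr78E, Cpr92A, Cpr92F and Cpr100A. No chromosome 3R or X member had a promoter peak.

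Reads that map to several places were discarded by the authors, which could hide peaks at copied genes. At 75 of the 77 Cpr promoters, under 5% of the 31-base words recur elsewhere in the genome. At the other 2, those of the duplicated genes Cpr65Ax1 and Cpr65Ax2, over 50% recur, and there an empty promoter cannot be told apart from discarded reads. All 13 promoters with a peak were among the 75.

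The Cpr promoters differed from others in the TATA box more than in the elements of the pioneer factors. In the window from 250 bases before to 50 bases after the TSS, GAGAG on either strand was present at 36.4% of Cpr promoters and 32.4% of all promoters. CAGGTA on either strand was present at 5.19% of Cpr promoters and 6.48% of all promoters. TATAAA on either strand was present at 70.1% of Cpr promoters and 41.3% of all promoters. Counted only on the sense strand and only where the first T lay 35 to 20 bases before the TSS, the usual place of a TATA box, it was present at 37 of 77 Cpr promoters (48.1%) and at 5.42% of 24111 promoters with a full window. This positioned count was chosen after the data were seen. GAGAG was present at 5 of the 13 Cpr promoters with a peak and at 23 of the 64 without one.

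Examples of the positioned TATA box are given for 6 Cpr genes without a peak in any list, the first such gene in each of 6 clusters. Each runs from 50 bases before the TSS to 10 bases into the transcript, 5′ to 3′ in dm6, with the TATA box in capitals.
Cpr62Bc (chr3L:1842075-1842134, minus strand): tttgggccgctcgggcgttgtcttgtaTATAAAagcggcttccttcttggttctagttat
Cpr64Aa (chr3L:4209169-4209228, minus strand): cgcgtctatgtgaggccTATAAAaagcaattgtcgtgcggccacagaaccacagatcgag
Cpr65Av (chr3L:6139965-6140024, minus strand): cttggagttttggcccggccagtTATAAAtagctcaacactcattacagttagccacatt
Cpr65Ea (chr3L:7086599-7086658, minus strand): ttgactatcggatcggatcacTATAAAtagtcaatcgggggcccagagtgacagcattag
Cpr67Fa1 (chr3L:10889940-10889999, plus strand): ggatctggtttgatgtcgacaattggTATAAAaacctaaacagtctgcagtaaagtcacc
Cpr72Eb (chr3L:16364849-16364908, plus strand): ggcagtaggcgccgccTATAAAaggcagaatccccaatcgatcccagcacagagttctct
The first T of the box lies 23 to 34 bases before the TSS in these 6.

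The promoters with a positioned TATA box were also compared among themselves. Of 1269 promoters of other genes with one, 36.1% and 35.3% had an RNA Pol II-Ser5P peak, against 54.0% and 53.9% of 22765 without one. Among Cpr promoters with one, 5 and 3 of 37 had an RNA Pol II-Ser5P peak, against 5 and 7 of 40 without. Any of the 14 lists had a peak at 6 of the 37 and at 7 of the 40. The split by TATA box had no steady direction among Cpr promoters, and with or without one their counts corresponded to lower shares than in other genes. Only the exact letters TATAAA were counted, so a promoter with a variant of the box was placed among those without one.

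Other genes of the cuticle were compared through lists drawn up by name, also with earlier results known. Of 53 other cuticle protein genes (the Lcp, Ccp84A, Edg and Twdl genes, Acp65Aa, Pcp and resilin) with 59 promoters, 9.32% ± 1.20 of promoters on average had an RNA Pol II-Ser5P peak and 15.3% had a peak in any list, close to the 12.99% and 16.9% of Cpr promoters. The 2 sets are not fully separate. Lcp65Ag3 and Lcp65Ag2, which had RNA Pol II-Ser5P in both replicates, lie 1120 and 1484 bp from Cpr65Au. Their promoter windows overlap that of Cpr65Au, so the same peak can count in both sets. Edg84A had peaks in 7 lists and Edg78E, which lies beside Cpr78Cb, in 5. Odorant and gustatory receptor genes, which act in sensory neurons, were at a like level: 14.3% ± 2.13 of 133 promoters had RNA Pol II-Ser5P and 18.8% a peak in any list (SD, n = 2 lists). Shares this low were thus also found outside the Cpr genes.

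Genes that build the cuticle were mixed. Of 20 chitin and cuticle assembly genes, 12 had a promoter peak in some list, where 62.6% of all genes had one. RNA Pol II-Ser5P was at 53.1% ± 4.42 of their 32 promoters, against 52.9% ± 0.102 of all promoters (SD, n = 2 lists each), so for this protein the list was at the level of all promoters. GAF was at 34.4% in the mutant and 37.5% in wild type, against 24.1% and 26.1% of all promoters. dPCIF1 was at 37.5% against 21.6%. ZLD was at 15.6% ± 4.42 in the mutant, against 12.1% of all promoters, and at 9.38% in wild type, against 12.3% (SD, n = 2 lists). A few genes weigh heavily here, since rtv has 4 of the 32 promoters, dpy 3 and Cht2 3. rtv, needed for chitin organisation, had a peak in 14 lists and dpy, a giant extracellular protein that ties epidermis to cuticle, in 13. mmy, which makes the activated sugar for chitin, had a peak in 7, and kkv, the chitin synthase, in 4. ple and Ddc, the enzymes that start the dopamine pathway for tanning, had 0, as did the chitin deacetylases serp and verm and the chitin-binding proteins Gasp and obst-A.

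The promoters of transcription factors known to act in epidermis or in the response to the moulting hormone ecdysone held GAF more often than promoters at large. ZLD, dPCIF1 and HIRA were also at larger shares of them, as with HIRA at 36.1% against 19.1%. Only RNA Pol II-Ser5P was at a smaller share, and only when counted by promoter. Of 19 regulators, 18 had a promoter peak in some list, where 62.6% of all genes had one, and 78.7% of their 61 promoters did, against 64.4% of all promoters. GAF was at 72.1% ± 4.64 of these promoters in the mutant, against 24.1% ± 1.67 of all promoters, and at 71.3% ± 1.16 in wild type, against 26.1% ± 0.448 of all promoters (SD, n = 2 lists each). RNA Pol II-Ser5P was at 37.7% ± 2.32 of them, against 52.9% ± 0.102 of all promoters (SD, n = 2 lists each). Counted by gene, 12 of 19 regulators had a promoter with it in both replicates, against 8986 of 18315 genes, which is not a smaller share. The 19 regulators have 61 promoters, whereas 18315 genes have 24149. Counts by gene, also that of the 18 with any peak, thus give a regulator more promoters at which a peak can fall. The gene br, with 0 lists, has 9 of the 61 promoters. A peak was present in all 14 lists at grh, ovo, vvl, ttk, rib, drm, sob, Blimp-1 and EcR, and in 0 lists at br. The cytoplasmic ribosomal protein genes, transcribed in most cells, had RNA Pol II-Ser5P at 98.6% of 143 promoters in each replicate.

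**Figure D5:**
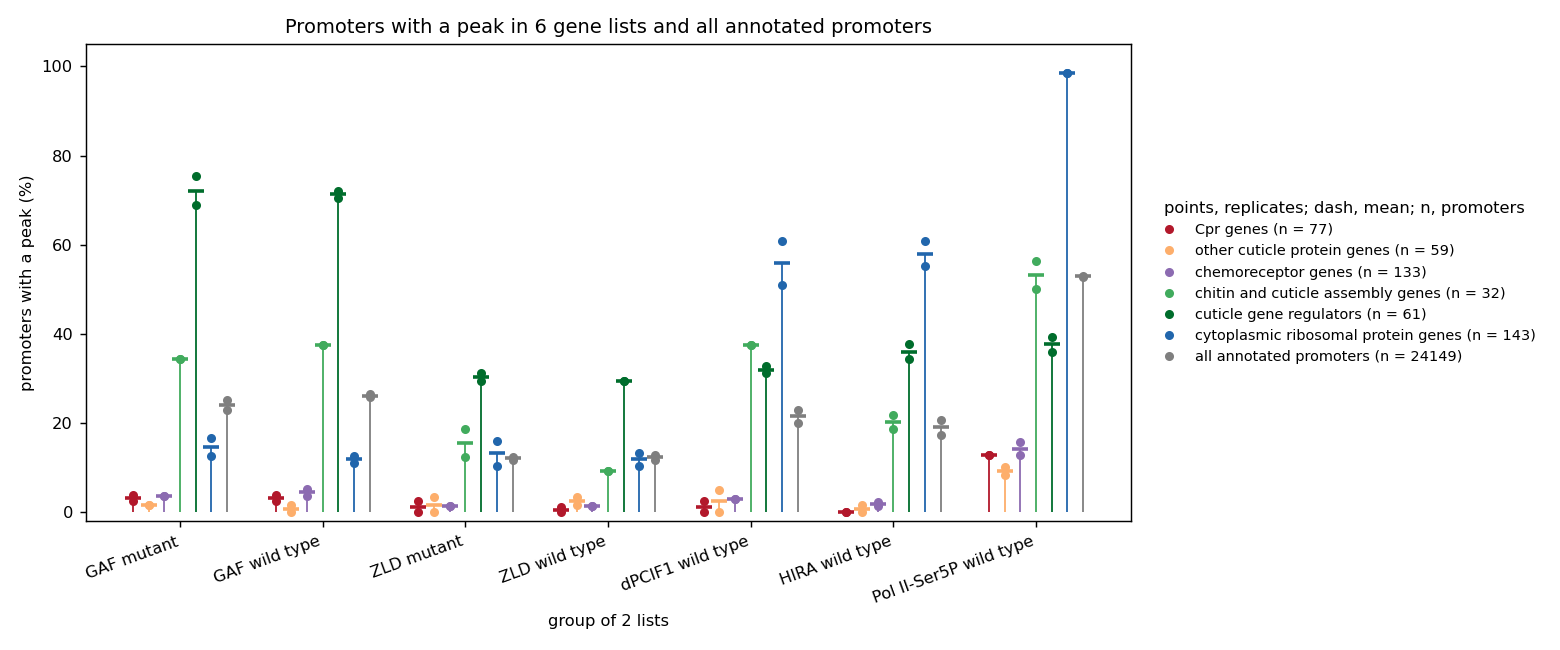
Percent of promoters with a peak in each of the 7 groups, for the Cpr genes (red, 77 promoters), 5 other gene lists and all annotated promoters (grey, 24149), with a point per replicate and a dash at the mean. Cpr genes, other cuticle protein genes and chemoreceptor genes lie together at the bottom of every group, while the regulators reach 72.1% for GAF in the mutant and ribosomal protein genes 98.6% for RNA Pol II-Ser5P.

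GAF and ZLD peaks were as rare at Cpr promoters of M-Z+ dPCIF1 mutant embryos as at those of wild type, within the spread between replicates. The mean GAF share was 3.25% in the mutant and 3.25% in wild type, a difference of 0 percentage points, against −2.02 points for all promoters. The mean ZLD share was 1.30% ± 1.84 in the mutant and 0.649% ± 0.918 in wild type (SD, n = 2 lists each), a difference of 0.649 points that is within the spread between replicates. For all promoters the ZLD difference was −0.226 points. With 2 lists against 2 no test was run, and single Cpr promoters came and went between replicates of 1 genotype. The lists say nothing of changes in signal height.

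As a check of the gene symbols, the predicted proteins of the 70 genes were searched for the extended Rebers and Riddiford consensus. The pattern in its strict form was present in 5 genes. With tyrosine or phenylalanine allowed at its last aromatic position it was present in 16, and its short core was present in 21. The looser forms were added because the strict form found so few, and the domain is known to vary more than any of these patterns. The search therefore does not check membership for the other 49 genes, and membership rests on the symbol.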

How the data were processed

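ChIP-seq was done by the authors on pools of hand-selected embryos, and 14 of the 40 labelled samples had a peak list (7 groups of 2 replicates, from the sample titles). The other 26, among them inputs, were not analysed here. The study's methods call the replicates biological. As the authors describe it, reads were trimmed (Trimmomatic 0.39) and mapped to dm6 (Bowtie2 2.2.5), reads with several positions, low quality or duplicate marks were handled with SAMtools 1.18 and sambamba, and MACS2 2.2.7.1 called peaks in each replicate separately at a fixed q-value. The deposited lists hold the chromosome, start and end of each peak and no other value. Deeper sequencing or a better precipitation also yields more called peaks, which cannot be told apart here from more binding.

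Members and TSS came from the Ensembl release 115 annotation, without transposable elements and limited to the main chromosome arms and the mitochondrial genome, whose lengths hold all peaks. Any overlap of at least 1 bp with a promoter counted, and a peak in both replicates means that each list had one in that promoter. Overlaps were computed with Python 3.11.15, numpy 2.4.6 and pandas 2.3.3, and the overlap code was tested on simulated data. No test was run over the members, so no p-value is given, and the share of all annotated promoters is the background. The members and gene lists were chosen with earlier results of these data known. Genes were to be named by 3 conditions (both replicates of dPCIF1 or HIRA, at least 10 of the 14 lists, or both lists of 1 genotype and none of the other), which took 0 members, so the exceptions were named after their values were seen. Sequences were read from the RefSeq copy of the dm6 assembly. The gap for clusters was 10 kb between starts. The positioned TATA count, the looser protein patterns, the check of repeated 31-base words, the counts of peaks over a TSS and the choice of printed sequences were added after seeing the data. Alternatives were a 500 bp window, 1 TSS per gene, peaks of at least 500 bp, promoters without another TSS, both replicates, and leaving out each replicate.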

Additional observations from a re-analysis of the deposited data

How the results depend on the processing

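Of 67 values recomputed under an alternative, 57 moved by no more than 1 SD between replicates and 10 by more. In no alternative did the Cpr share of a group reach that of all promoters. The count of 57 is no measure of stability. With 2 lists, leaving out 1 can never move a mean by more than 1 SD. For ZLD and dPCIF1 the SD exceeded the mean (1.30% ± 1.84 for dPCIF1), so even a fall to 0% stayed within it. A window of 500 bp lowered the mean Cpr share to 0.649% for GAF in the mutant, 1.30% for GAF in wild type and 5.84% for RNA Pol II-Ser5P. With peaks of at least 500 bp only, it was 1.95% for GAF in the mutant and 9.74% for RNA Pol II-Ser5P. Without promoters that hold another TSS it was 2.31% for GAF in the mutant, 2.31% for GAF in wild type and 12.3% for RNA Pol II-Ser5P. RNA Pol II-Ser5P was at 12.1% with 1 TSS per gene and at 10.4% when both replicates were required. Its replicates had the same share, so any shift counts as moved.

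Leaving out a replicate gave 2.60% to 3.90% for GAF in the mutant, 2.60% to 3.90% for GAF in wild type, 0% to 2.60% for ZLD in the mutant, 0% to 1.30% for ZLD in wild type, 0% to 2.60% for dPCIF1, 0% for HIRA and 12.99% for RNA Pol II-Ser5P. The mutant minus wild type difference then ran from −0.649 to 0.649 points for GAF and from −0.649 to 1.95 points for ZLD, so its sign turned with single lists. All ZLD and dPCIF1 peaks at Cpr promoters came from replicate 1. No paired analysis was possible because the shares come from no test that a block could enter. As values only, differences between same-numbered lists were −1.30 and 1.30 points for GAF and 1.30 and 0 points for ZLD. Depth and signal height are unknown, so a missing peak is not shown to be a missing protein.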
